A study of Mus musculus with 8 samples.

Results

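The expression of 8 genes of the megakaryocyte cytoskeleton and contractile apparatus (Tubb1, Myl9, Mylk, Tpm1, Cald1, Kalrn, Myom1 and Cavin2) was followed across bone marrow and fetal liver of mice without and with Col18a1, which encodes type XVIII collagen of basement membranes. They are 8 of 18194 genes that have a probe set naming 1 gene only, and 26 probe sets represent them. They were chosen by name with earlier results of these arrays known, chiefly the knockout against wild-type difference in bone marrow, so that difference is described here without a test. Total RNA was hybridised to Affymetrix expression arrays of the mouse genome, 8 in all and 2 for each of 4 groups. The groups were Col18a1-/- bone marrow, Col18a1+/+ bone marrow, Col18a1-/- fetal liver and Col18a1+/+ fetal liver, all with the strain given as C57B6/J. Marrow was flushed from femurs and tibias of males aged 3 months, and livers were taken at embryonic day 14.5 from embryos of undetermined sex. Both tissues were used as filtered suspensions of all their cells, and each array held RNA pooled from 2 littermates. The labels restrict the deletion to no cell type.

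Megakaryocytes are the large marrow and fetal liver cells that shed platelets. They push out long proplatelet extensions that are driven by sliding bundles of microtubules, and an actin and myosin network beneath the membrane governs when the extensions form and what force they bear. Phosphorylation of the myosin regulatory light chain by myosin light chain kinase switches that network on, while tropomyosin and caldesmon control the access of myosin to actin. Several of these genes are also used by smooth muscle, endothelium or striated muscle, and in RNA from whole suspensions fewer cells of a type and less RNA per cell cannot be told apart.

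The median intensity of an array was 40.8 to 42.6, and precision is limited throughout by having 2 arrays a group. Probe sets of the targeted gene Col18a1 read lower in every knockout array. The _s_at probe set read 5.63 and 5.99 (log2 intensity) in knockout against 7.84 and 7.85 in wild-type marrow, and 8.17 and 8.06 in knockout against 9.06 and 9.18 in wild-type fetal liver. The _at probe set read 6.13 and 5.91 in knockout against 7.39 and 7.33 in wild-type marrow, and 7.27 and 7.49 in knockout against 8.89 and 9.11 in wild-type fetal liver. Neutrophil markers averaged 12.52 to 12.59 on the marrow arrays and 8.41 to 8.83 on the fetal liver arrays, while hepatoblast markers averaged 4.42 to 4.72 and 11.97 to 12.13 on the same arrays, as the tissue labels have it. The fetal liver pools differed in sex-linked expression as well as genotype, the X-inactivation RNA Xist standing at 4.97 and 4.77 in knockout and at 11.04 and 11.22 in wild-type. The Y-linked gene Eif2s3y went the other way, at 9.38 and 9.42 in knockout and 3.29 and 3.00 in wild-type fetal liver. Genotype and sex of the pools cannot be told apart in fetal liver. All 8 genes lie on autosomes, and the part of sex in their fetal liver values was not tested.

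The first question was how the cytoskeletal genes stood in adult marrow without Col18a1. Of the 8 genes 7 were 1.86-fold to 3.06-fold lower in knockout marrow, and Tpm1 was nearly level. All values below are log2 intensities of the brightest probe set of each gene, and differences carry the standard error (SE) of a linear model (limma) over all 8 arrays. On all 8 genes both knockout arrays lay below both wild-type arrays, which was also so for 19.3% of the 13136 genes tested, while 23.8% of those genes lay the other way round and 45.6% had a negative difference. An adjusted p under 0.05 in this comparison was reached by 0.411% of those genes (limma), 0.365% lower and 0.0457% higher in knockout marrow. Nothing is read from these shares, since the 8 genes were picked from this comparison. The median difference of the 8 genes was -1.31, and that of all genes was 0.014.

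Tubb1 encodes the beta-tubulin found chiefly in megakaryocytes and platelets, where it builds the marginal microtubule band that gives platelets their disc shape. Its probe set (1444214_at) read 9.59 and 9.68 in knockout marrow and 11.29 and 10.90 in wild-type marrow. The difference was -1.46 ± 0.13 (SE), a 2.75-fold lower level. The groups were far apart for this gene, with wild-type replicate 1 the highest array of all 8.

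Myl9 encodes a regulatory light chain of smooth muscle and non-muscle myosin. It stood at 7.28 and 7.43 in knockout marrow, against 8.79 and 8.42 in wild-type marrow, a difference of -1.25 ± 0.14. Mylk, the gene of the kinase that phosphorylates this light chain, read 7.89 and 7.90 in knockout marrow and 8.88 and 8.71 in wild-type marrow. Its difference of -0.90 ± 0.12 was the smallest among the 7 genes that were clearly lower. The light chain and its kinase were both lower in knockout marrow on both arrays, and whether the sizes differ was not tested.

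Cald1 encodes caldesmon, an actin-binding protein that inhibits myosin activity on actin filaments. It read 8.21 and 8.15 in knockout marrow and 9.97 and 9.46 in wild-type marrow, a difference of -1.54 ± 0.16. Tpm1 encodes a tropomyosin, the coiled coil that lies along actin filaments. It read 8.79 and 8.80 in knockout marrow and 8.94 and 8.84 in wild-type marrow, a difference of -0.099 ± 0.089 (log2). Caldesmon and tropomyosin act on the same filament, and of the pair Cald1 was clearly lower and Tpm1 nearly level.

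Kalrn encodes kalirin, a large signalling protein that is best known from neurons. Its level was 6.58 and 6.69 in knockout marrow and 8.45 and 8.04 in wild-type marrow, and its difference of -1.61 ± 0.14 was the largest of the 8. Myom1 encodes myomesin, which links thick filaments at the M-band of striated muscle. It had the lowest intensity of the 8 probe sets in marrow, at 5.02 and 5.19 in knockout marrow against 6.66 and 6.28 in wild-type marrow, a difference of -1.37 ± 0.15. Cavin2 encodes a coat protein of caveolae, the small flask-shaped pits of the plasma membrane. It read 8.52 and 8.47 in knockout marrow and 10.04 and 9.45 in wild-type marrow, a difference of -1.25 ± 0.18.

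**Figure D1:**
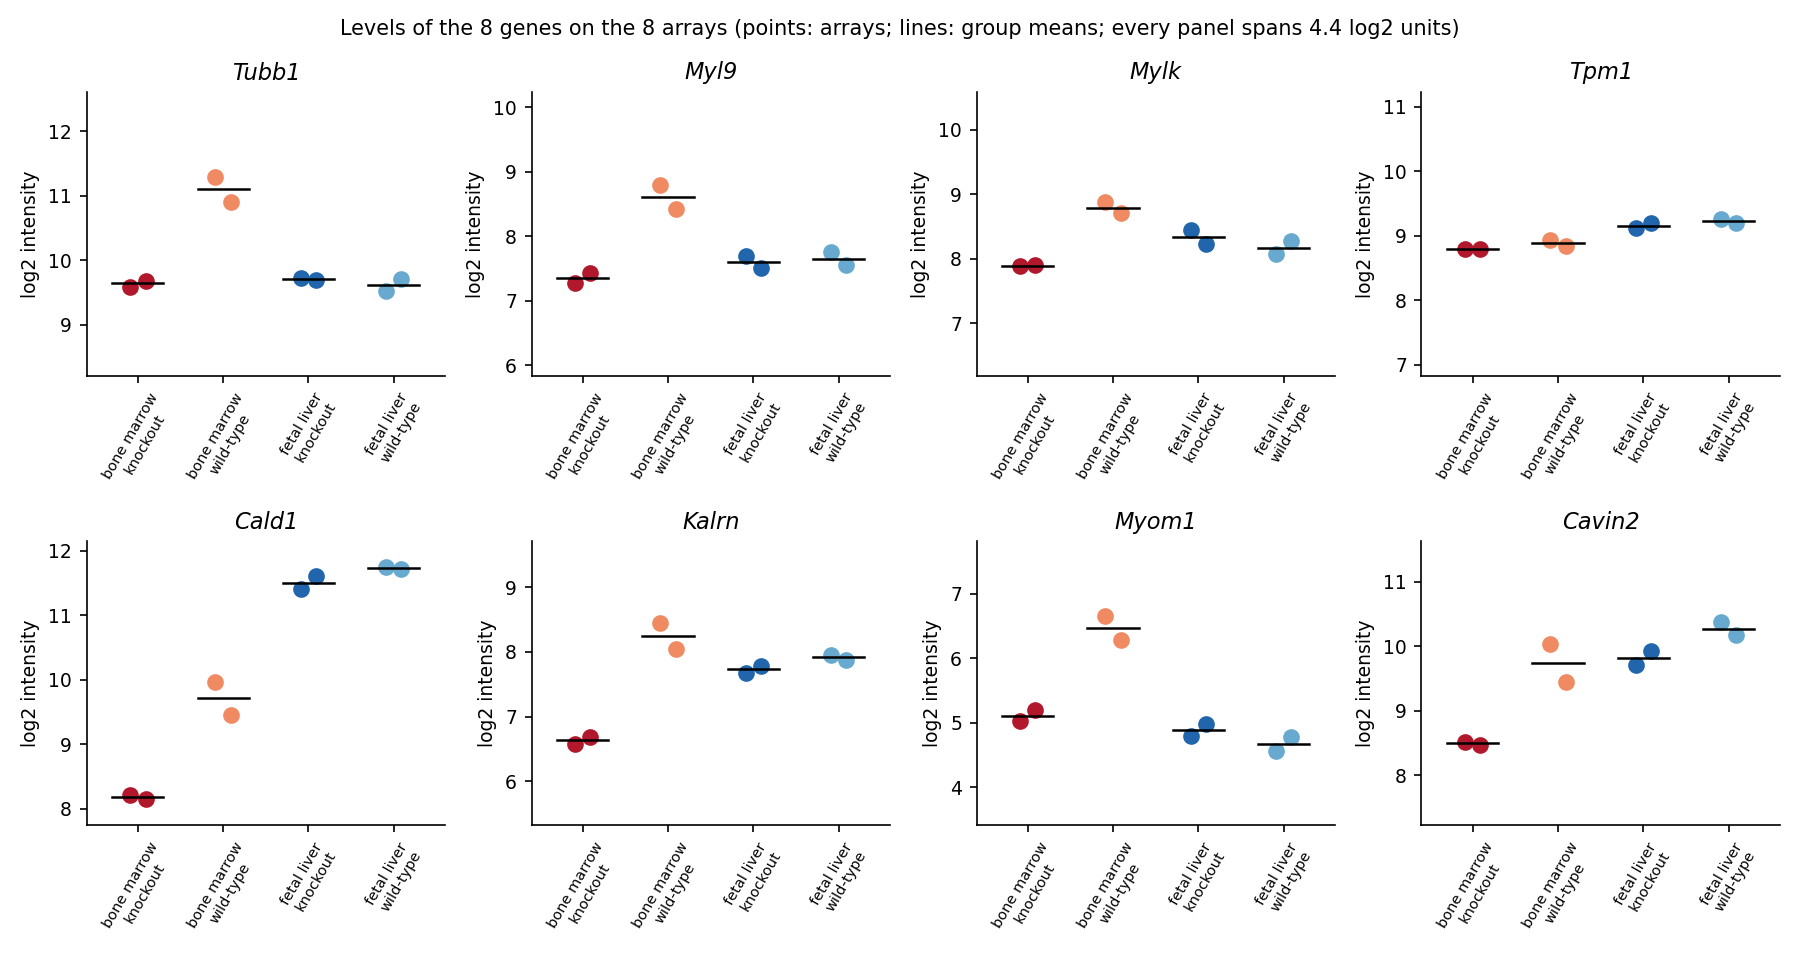
Log2 intensity of the brightest probe set of each gene on the 8 arrays. Points are single arrays, black lines are means of 2 arrays, and panels start at different levels but span the same number of log2 units. Wild-type bone marrow stands clearly above knockout bone marrow for 7 genes, with Tpm1 nearly level at 8.79 and 8.80 against 8.94 and 8.84.

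The wild-type marrow pools differed from each other in the same direction on all 8 genes. Replicate 1 was above replicate 2 by 0.099 (Tpm1) to 0.59 (Cavin2), with a median of 0.38, where the median over all genes tested was 0.022. The knockout marrow pools differed by -0.17 to 0.061 on the same genes. Megakaryocyte markers and stromal markers moved with them. The mean of the 16 tested megakaryocyte markers was 8.0 and 7.97 on the knockout arrays and 9.10 and 8.77 on the wild-type arrays. For the 10 stromal and bone cell markers it was 7.29 and 7.29 on the knockout arrays and 7.97 and 7.62 on the wild-type arrays. Without wild-type replicate 1 the median difference of the 8 genes was -1.12, and without wild-type replicate 2 it was -1.55.

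Of the 26 probe sets, 17 reached 5 (log2) on at least 2 arrays and 9 did not. The 3 probe sets of Cavin2 differed by -1.25, -1.13 and -1.17 in marrow, and the 3 bright probe sets of Cald1 by -1.54, -1.39 and -1.21. A dimmer Cald1 probe set (1433147_at) stood at 4.11 in knockout and 4.92 in wild-type marrow, a difference of -0.80, while the fifth (1433146_at) read 4.54 and 4.52. For Mylk, a pair of probe sets gave -0.90 and -0.93, and the third (1425504_at), at 4.18 and 4.17, gave 0.012. With all probe sets of a gene averaged the marrow difference was -0.98 for Cald1 and -0.61 for Mylk.

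Kalrn rests on 1 bright probe set of 8. The other 7 lay between 2.85 and 4.92 in wild-type marrow, with differences of -0.48 to 0.20. Of these, 1442554_s_at differed by -0.48 and 1457899_at by -0.38. Tpm1 was the reverse case, since its 3 brighter probe sets read 6.76 to 8.89 in wild-type marrow and differed by -0.099, 0.017 and -0.049. Its dim probe set (1447713_at), at 2.73 in wild-type marrow, differed by -0.13. Tropomyosin and caldesmon transcripts are alternatively spliced, and the isoforms that each probe set detects were not analysed here.

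**Figure D2:**
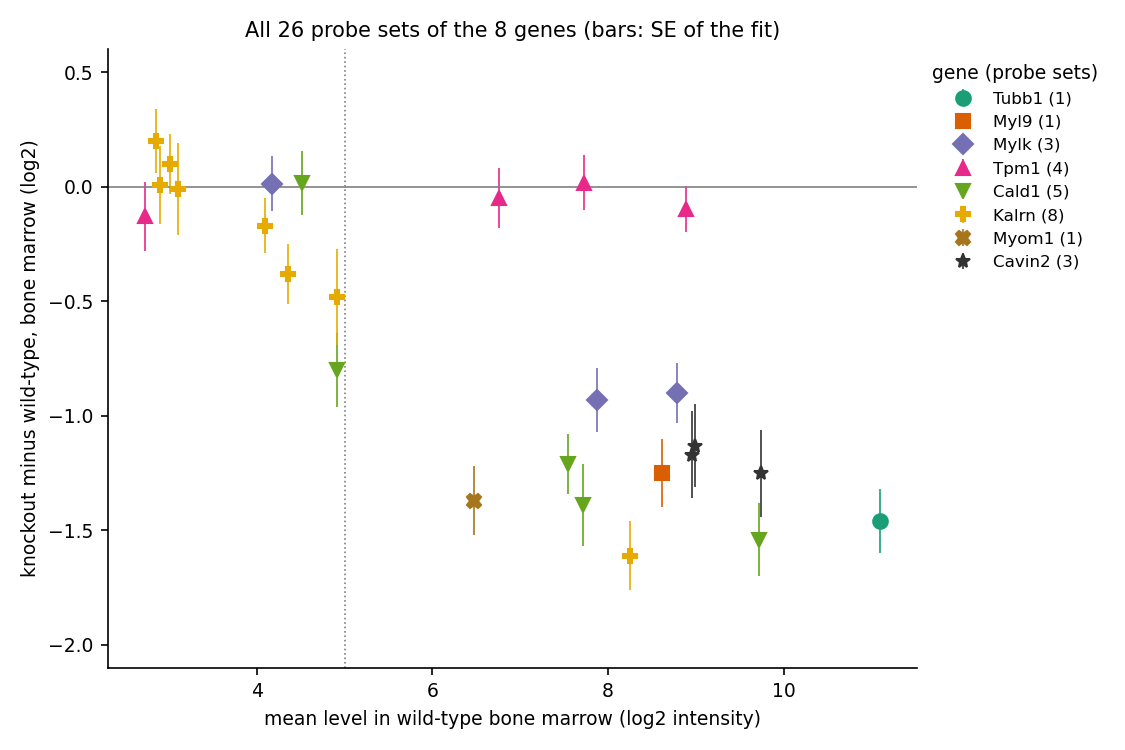
Knockout minus wild-type difference in bone marrow (log2, bars are SE of the fit) against the mean wild-type level for each of the 26 probe sets, coloured by gene. Probe sets left of the dotted line at 5 lie between -0.80 and 0.20, while all brighter ones except those of Tpm1 lie at -0.90 or below.

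Promoter sequence was examined because 7 of the genes were lower together. RefSeq promoter windows (assembly GRCm38.p6, 250 bases before to 50 after an annotated start) were at hand for all 8 genes, 9 windows in all, Cald1 having a pair. Both strands were searched for the CArG box of serum response factor, for the AP-1 core TGANTCA, for the NF-E2 core (the same letters with TGC directly before them), for the core AGATAA bound by factors such as the product of Gata1, for the core CGGAAG of the ETS factor family, for the MEF2 core, and for the letters TATAAA that precede many gene starts. Those of Myl9, Myom1 and Mylk are shown for their matches to factors known from muscle genes or platelet formation, and those of Tubb1 and Tpm1 because they are the platelet tubulin gene and the nearly level gene. Capitals mark every match, and sequences run 5′ to 3′ on the strand of the gene.
Myl9 (chr2:156775214-156775513, + strand): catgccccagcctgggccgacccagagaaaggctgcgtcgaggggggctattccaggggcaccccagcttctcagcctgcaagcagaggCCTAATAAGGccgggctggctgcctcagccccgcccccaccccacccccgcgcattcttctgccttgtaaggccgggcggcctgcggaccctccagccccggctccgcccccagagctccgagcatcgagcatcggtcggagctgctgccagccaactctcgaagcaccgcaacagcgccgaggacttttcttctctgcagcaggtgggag
Myom1 (chr17:71019307-71019606, + strand): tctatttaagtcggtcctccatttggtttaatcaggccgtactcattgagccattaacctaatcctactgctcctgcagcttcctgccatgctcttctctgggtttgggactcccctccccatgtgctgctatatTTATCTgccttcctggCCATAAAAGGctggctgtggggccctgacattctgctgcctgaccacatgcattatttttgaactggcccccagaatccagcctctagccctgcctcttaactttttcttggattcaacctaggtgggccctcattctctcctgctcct
Mylk (chr16:34784700-34784999, + strand): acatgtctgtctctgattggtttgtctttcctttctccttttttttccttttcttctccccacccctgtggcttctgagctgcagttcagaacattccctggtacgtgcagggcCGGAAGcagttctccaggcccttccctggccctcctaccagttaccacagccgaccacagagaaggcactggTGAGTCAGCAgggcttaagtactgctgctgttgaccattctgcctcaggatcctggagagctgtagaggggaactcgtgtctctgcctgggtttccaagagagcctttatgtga
Tubb1 (chr2:174450345-174450644, + strand): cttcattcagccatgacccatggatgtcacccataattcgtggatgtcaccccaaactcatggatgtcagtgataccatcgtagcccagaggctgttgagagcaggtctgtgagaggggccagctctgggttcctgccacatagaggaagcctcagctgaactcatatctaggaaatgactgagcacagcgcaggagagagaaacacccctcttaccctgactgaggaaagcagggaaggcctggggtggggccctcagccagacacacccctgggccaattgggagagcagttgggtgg
Tpm1 (chr9:67049164-67049463, - strand): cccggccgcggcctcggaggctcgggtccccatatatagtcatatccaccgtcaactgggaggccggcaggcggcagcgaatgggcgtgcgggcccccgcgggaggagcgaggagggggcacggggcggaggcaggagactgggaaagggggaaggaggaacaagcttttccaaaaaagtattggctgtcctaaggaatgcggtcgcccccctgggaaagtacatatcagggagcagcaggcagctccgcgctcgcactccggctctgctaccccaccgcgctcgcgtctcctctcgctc

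The CArG box was found in the windows of Myl9, at position -161 from the annotated start, and Myom1, at position -99, and it occurs in 1.63% of the 32851 windows of the table. The NF-E2 core was found in the window of Mylk at position -64, on the minus strand of the window, overlapping the AP-1 core that it contains, and occurs in 0.423% of all windows. AGATAA matched on the minus strand of the Myom1 window, 1 of 9 windows against 11.2% of all. CGGAAG matched in Mylk at position -136, again 1 of 9 windows against 16.9% of all. The windows not printed held a match to the loose MEF2 pattern in Cavin2, as CTAGATTTAG with a G among the free bases (3.69% of all windows match this pattern). They also held matches to the AP-1 core (7.81%) and TATAAA (13.6%) in 1 of the Cald1 windows. The windows of Tubb1, Tpm1 and Kalrn held none of these letters. The motifs were chosen with the sequences in view, so nothing is read from the shares of all windows. A match is a run of letters in a window of 300 bases and not evidence of binding, and other starts of these genes were not examined.

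Other genes of the same machinery were counted from lists made by role, with earlier results of these arrays known, so the counts are a description. Among microtubule genes, 0 of 14 tested differed at an adjusted p under 0.05 in knockout marrow (limma), 2 at an unadjusted p under 0.05, with a median difference of -0.01. Of all 13136 genes tested 886 had an unadjusted p under 0.05 in marrow. Tuba1a, an alpha-tubulin gene, differed by -0.37 ± 0.13 (adjusted p = 0.661, limma) and Tubb2a, a beta-tubulin gene, by -0.25 ± 0.097. None of the other tubulin genes measured was called in knockout marrow.

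Of 13 myosin genes and regulators 0 were called and 0 had an unadjusted p under 0.05 (median -0.053, lowest adjusted p = 0.76, limma). Myh9, the main non-muscle myosin heavy chain of platelets, differed by -0.032 and the light chain genes Myl12a and Myl12b by -0.07 and 0.11. Among 28 thin filament genes 1 fell and 0 rose (limma, 7 at an unadjusted p under 0.05), and 23 had a negative difference (median -0.072). Over all genes tested 0.365% fell and 45.6% had a negative difference. Tpm2, another tropomyosin gene, read 8.12 and 8.26 in knockout marrow and 9.67 and 9.28 in wild-type marrow, and fell by 1.28 ± 0.14 (adjusted p = 0.0111, limma). A second bright probe set of Tpm2 differed by -1.36. Tpm4, a tropomyosin gene of platelets and other non-muscle cells, differed by -0.50 ± 0.11 (adjusted p = 0.157, limma) and Tmod3, a tropomodulin gene, by -0.46. The tropomyosin genes therefore ranged from a called fall (Tpm2) to near 0 (Tpm1 and Tpm3, at -0.073).

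Of 10 tested genes of caveolae and membrane curvature 1 fell (median -0.18), where 0.365% of all genes tested fell. Cavin1, whose product is needed to form caveolae together with caveolins, read 6.21 and 6.12 in knockout marrow and 7.45 and 6.97 in wild-type marrow, and fell by 1.05 ± 0.15 (adjusted p = 0.0312, limma). Cav1, the main caveolin gene outside muscle, differed by -0.20 ± 0.16 at a low level, 4.77 and 4.88 against 5.11 and 4.94. Ehd3, a gene of membrane trafficking, differed by -0.48 ± 0.12 (adjusted p = 0.288, limma). The calls of Tpm2 and Cavin1 were both lost without either knockout marrow array (adjusted p = 0.106 to 0.255, limma) and without wild-type marrow replicate 1 (adjusted p = 0.0608 for Tpm2 and 0.144 for Cavin1, limma). Both were lost too in a fit of the 4 marrow arrays alone (adjusted p = 0.0763 for Tpm2 and 0.134 for Cavin1, limma). That of Cavin1 was also lost without any 1 fetal liver array (adjusted p = 0.0656 to 0.0678, limma). With 1 array left out the differences ran from -1.48 to -1.09 for Tpm2 and from -1.29 to -0.80 for Cavin1. With all probe sets of a gene averaged they were -0.64 for Tpm2 (adjusted p = 0.0295, limma) and -0.47 for Cavin1 (adjusted p = 0.217, limma).

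The 4 measured M-band and giant sarcomere genes had 0 calls (limma, 1 at an unadjusted p under 0.05), and Myom3, a relative of Myom1, differed by -0.099. Among 14 transcription factor genes of the serum response factor pathway and of megakaryocytes 0 were called and 0 had an unadjusted p under 0.05 (median -0.025, lowest adjusted p = 0.897, limma). Fli1 differed by -0.32, Gata1 by 0.12 and Mrtfa, a coactivator of serum response factor, by -0.093.

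Markers of the cell types that could carry these transcripts were measured on the same arrays. Their lists too were chosen with earlier results known, so the counts and the shares beside them are a description. All 16 tested megakaryocyte markers were lower in knockout marrow (median -1.04) and 10 of them fell at an adjusted p under 0.05 (limma), where 45.6% of all genes had a negative difference and 0.365% fell. Vwf, the gene of von Willebrand factor, fell by 1.44 ± 0.16 and Gp1bb, of a subunit of its platelet receptor, fell by 1.34 ± 0.15. The count was 0 without either knockout marrow array, without wild-type replicate 1 and in a fit of the 4 marrow arrays alone, with medians of -1.07 to -0.87. Of 12 smooth muscle and pericyte markers 0 were called (limma, 3 at an unadjusted p under 0.05), and 8 of them had a negative difference (median -0.078). Rgs5 and Pdgfrb, which mark pericytes, differed by -0.96 ± 0.20 and -0.69 ± 0.18 (adjusted p = 0.142 and 0.324, limma). Acta2 and Tagln, which mark smooth muscle, differed by 0.37 ± 0.21 and 0.30 ± 0.086 (adjusted p = 0.848 and 0.41, limma). The rest of the list did not follow either pair as a set. Cspg4, Notch3, Mcam and Des differed by 0.13, -0.20, -0.035 and -0.038, and Actg2, Smtn, Lmod1 and Myh11 by -0.45, -0.25, -0.12 and 0.087. The mean of that list was 5.69 and 5.75 on knockout and 5.88 and 5.87 on wild-type marrow arrays, and 3 of its 14 members with a probe set stayed under 5 on every marrow array.

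Of 11 endothelial markers 0 were called (limma, 3 at an unadjusted p under 0.05, median -0.12), with Esam, an adhesion gene of endothelium and platelets, at -0.92 ± 0.17 (adjusted p = 0.0854, limma) and Cdh5, the endothelial cadherin, at -0.61. Of 8 skeletal muscle markers 0 were called and 0 had an unadjusted p under 0.05 (limma), with a median of 0.076, and 5 of 13 with a probe set stayed under 5 on every marrow array. Stromal and bone cell markers were lower in 10 of 10 (median -0.40), where 45.6% of all genes had a negative difference. Col1a1 and Col1a2, the chains of type I collagen, fell by 1.22 ± 0.17 and fell by 0.76 ± 0.12 (adjusted p = 0.0303 and 0.0491, limma). Neither call was followed through the alternatives, and a fit of the 4 marrow arrays alone called 3 genes in all. The mean of the stromal list was 7.29 and 7.29 on knockout arrays and 7.97 and 7.62 on wild-type arrays. Of 9 erythroid, 11 neutrophil and 11 hepatoblast markers 0 were called (limma, 0, 0 and 3 at an unadjusted p under 0.05), with medians of 0.03, 0.048 and -0.0049. The part of megakaryocyte or stromal markers in the values of the 8 genes was not tested.

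**Figure D3:**
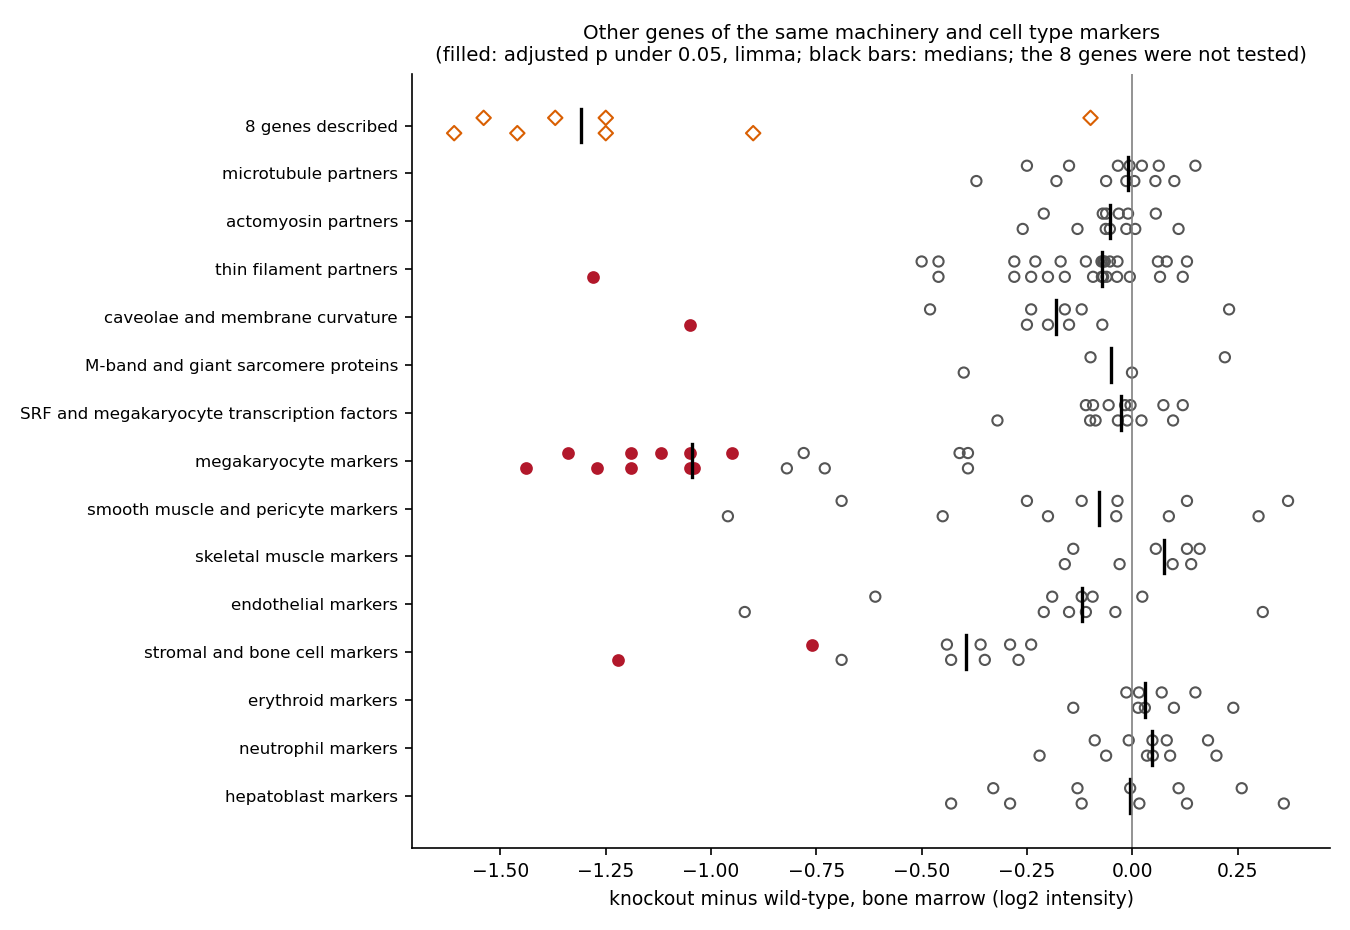
Knockout minus wild-type difference in bone marrow (log2) of every tested gene of each list, with open points for genes that did not pass, filled points for genes at an adjusted p under 0.05 (limma) and black bars for medians. The 8 genes, in the top row, were chosen from this comparison and were not tested. Their median of -1.31 and that of the megakaryocyte markers, -1.04, lie left of the medians of all other lists.

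The second question was whether the same genes differed with genotype in fetal liver. Other arrays give this difference than the marrow difference, although the fit pools the spread of each gene over all 8 arrays. None of the 8 was called there (adjusted p = 0.196 to 0.877, limma), against 0.320% of the 13136 genes tested (0.198% lower and 0.122% higher). At an unadjusted p under 0.05, 1 of the 8 (Cavin2) and 2890 of all genes passed. The differences had a median of -0.062, with 5 negative and 3 positive, where the median of all genes was -0.027 and 55.2% of them were negative.

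Tubb1 read 9.73 and 9.69 in knockout fetal liver and 9.52 and 9.71 in wild-type fetal liver, with overlapping groups and a difference of 0.095 ± 0.13 (95% interval -0.21 to 0.40). Myl9 read 7.70 and 7.51 in knockout and 7.76 and 7.55 in wild-type fetal liver, a difference of -0.047 ± 0.14 whose sign turned when 1 array was left out (0.044 without knockout replicate 2 and 0.058 without wild-type replicate 1). Mylk read 8.45 and 8.23 in knockout and 8.07 and 8.27 in wild-type fetal liver, a difference of 0.17 ± 0.12 (95% interval -0.096 to 0.44). The groups overlapped for all 3 of these microtubule and myosin genes.

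Cavin2 was the gene with the largest fetal difference, reading 9.71 and 9.93 in knockout and 10.38 and 10.17 in wild-type fetal liver. Its groups did not overlap, and the difference of -0.45 ± 0.18 missed the threshold after adjustment (adjusted p = 0.196, limma). Its other probe sets differed by -0.22 and -0.32. Kalrn read 7.67 and 7.79 in knockout and 7.96 and 7.88 in wild-type fetal liver, a difference of -0.19 ± 0.14. Cald1 read 11.41 and 11.60 in knockout and 11.74 and 11.72 in wild-type fetal liver, a difference of -0.23 ± 0.16. Another Cald1 probe set (1424770_at) went the other way, at 9.09 and 9.09 in knockout against 8.82 and 8.62 in wild-type, so the gene has no settled direction in fetal liver.

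Myom1 read 4.8 and 4.98 in knockout and 4.56 and 4.78 in wild-type fetal liver, a difference of 0.22 ± 0.15 at levels under 5, the minimum used for testing. Tpm1 read 9.12 and 9.19 in knockout and 9.26 and 9.20 in wild-type fetal liver, a difference of -0.076 ± 0.089. In all, groups did not overlap for 4 genes that were lower and 1 that was higher, where 30.2% and 19.9% of all genes tested did so in these directions. The 95% intervals of all 8 fetal differences ran from -0.87 at the lowest bound to 0.55 at the highest. These intervals are not set against the marrow estimates, because the genes were chosen with those known. The marrow difference minus the fetal difference, given without a test because it contains the comparison that chose the genes, was -1.58 ± 0.21 for Myom1, -1.56 ± 0.19 for Tubb1, -0.79 ± 0.26 for Cavin2 and -0.022 ± 0.13 for Tpm1.

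Among the other lists, 0 genes of the microtubule, myosin, thin filament, caveolae, sarcomere and transcription factor lists were called in fetal liver (limma), with 1 to 5 genes a list at an unadjusted p under 0.05. Tpm2 differed by 0.096 and Cavin1 by 0.028 there. Of the 16 megakaryocyte markers 0 were called (limma, 4 at an unadjusted p under 0.05), with a median of -0.16. Their mean was 7.93 and 7.90 in knockout and 8.13 and 8.04 in wild-type fetal liver.

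**Figure D4:**
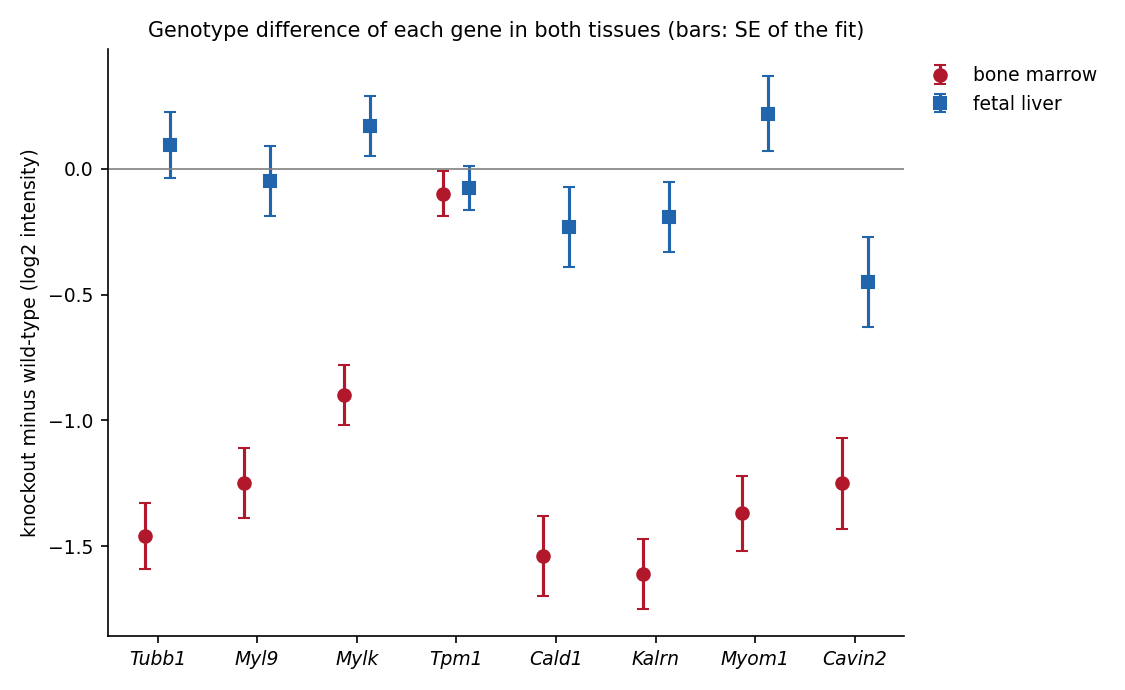
Knockout minus wild-type difference (log2, points) of each gene in bone marrow (circles) and fetal liver (squares), with SE of the fit as bars. Marrow values run from -1.61 to -0.90 for 7 genes with Tpm1 at -0.099, and fetal liver values from -0.45 to 0.22.

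The third comparison set adult marrow against fetal liver. It was tested as the mean of both marrow groups minus the mean of both fetal liver groups, a contrast that is orthogonal to the genotype difference in marrow, although it uses the same gene-wise spread. Of the 8 genes 7 were called (limma), 3 higher and 4 lower in marrow. Of all genes tested 74.3% were called (30.2% higher and 44.2% lower), so the count is near the background.

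Myom1 was among the genes called higher, with all 4 marrow arrays, at 5.02 to 6.66, above all 4 fetal liver arrays, at 4.56 to 4.98. Since those fetal liver levels lie under the minimum of 5 and the gene passed the filter only through marrow, its call had to point this way and no fold is given. Marrow and fetal liver arrays did not overlap for 3 of the 8 genes (Myom1, Tpm1 and Cald1), against 67.5% of all genes tested. Tubb1 was higher by 0.70 ± 0.095 (adjusted p = 0.00014, limma) and Myl9 by 0.35 ± 0.10 (adjusted p = 0.012, limma). The differences within a genotype are given without a test. Those of Myom1 are left out because its fetal liver levels lie under 5. Tubb1 differed between the tissues by -0.077 in knockout arrays and by 1.48 in wild-type arrays, and Myl9 by -0.25 and 0.95. Mylk did not pass (0.086 ± 0.083, 95% interval -0.10 to 0.28), with differences of -0.45 in knockout and 0.62 in wild-type arrays.

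Cald1 was 6.37-fold lower in marrow than in fetal liver, by -2.67 ± 0.11 on the log2 scale (adjusted p = 5.24e-08, limma), and the tissues did not overlap in either genotype. With all its probe sets averaged the difference was -1.58 (adjusted p = 1.22e-07, limma), and its other probe sets gave -2.52, -1.96, -0.69 and -0.036. Smooth muscle markers were lower in marrow too, with 9 of 12 called lower and 0 higher, among them Tagln at -1.79 and Acta2 at -1.42. Endothelial markers were called lower in marrow in 10 of 11 and higher in 1. Of 10 stromal and bone cell markers 8 were called lower and 2 higher, and of 11 hepatoblast markers 11 were called lower. Of 16 megakaryocyte markers 1 was called lower and 9 higher, and of 11 neutrophil markers 11 were called higher. Of the hepatoblast markers 5 stayed under 5 on every marrow array, as did Tek and Tie1 (endothelial) and Actg2 (smooth muscle). These passed the filter only through fetal liver, so their calls had to point lower. P2ry12 (megakaryocyte) stayed under 5 on every fetal liver array and passed only through marrow, so its call had to point higher. Over all genes tested 44.2% were called lower in marrow. The part of any of these cell types in the level of Cald1 was not tested. Cavin2 was lower in marrow by -0.92 ± 0.13 (adjusted p = 0.000167, limma), Kalrn by -0.38 ± 0.097 (adjusted p = 0.00617, limma) and Tpm1 by -0.35 ± 0.063 (adjusted p = 0.000891, limma).

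Kalrn changed sides with genotype, at -1.09 between the tissues in knockout arrays and 0.33 in wild-type arrays. Tpm1 differed by -0.36 and -0.34 in the same arrays, nearly alike. With the log2 values of all probe sets of a gene averaged, the Tpm1 difference was -0.10 and its call was lost (adjusted p = 0.134, limma), 1 of its probe sets (1456623_at) being higher in marrow by 0.31.

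**Figure D5:**
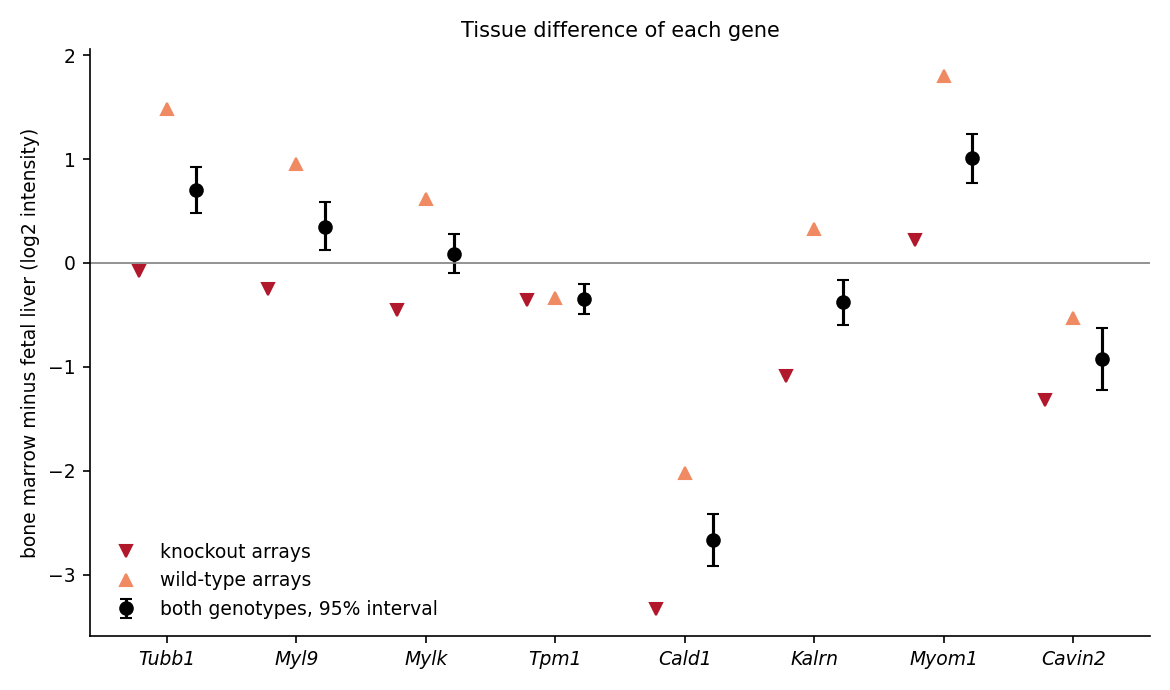
Bone marrow minus fetal liver difference (log2) of each gene in knockout arrays (down triangles), wild-type arrays (up triangles) and over both genotypes (circles, with 95% intervals of the fit). Cald1 lies lowest at -2.67 over both genotypes, Myom1 passed the level filter only through marrow (fetal liver 4.56 to 4.98, minimum 5), and Kalrn lies at -1.09 in knockout and 0.33 in wild-type arrays.

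The order of the 4 groups put the genes into sets. In Tubb1, Myl9, Mylk, Kalrn and Myom1 wild-type marrow was the highest group. For Tubb1 the other 3 groups lay together between 9.52 and 9.73, knockout marrow overlapping wild-type fetal liver and lying just below knockout fetal liver, at 9.59 and 9.68 against 9.73 and 9.69. For Myl9 and Mylk the fetal liver groups overlapped each other and knockout marrow lay below both. For Kalrn the order was wild-type marrow, wild-type fetal liver, knockout fetal liver and knockout marrow, with no overlap between neighbours. Myom1 in knockout marrow, at 5.02 and 5.19, stayed just above the fetal liver arrays, the highest of which was 4.98.

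In Tpm1, Cald1 and Cavin2 wild-type fetal liver was the highest group and knockout marrow the lowest. Wild-type marrow overlapped knockout fetal liver for Cavin2, at 10.04 and 9.45 against 9.71 and 9.93. It lay below both fetal liver groups for Cald1 and Tpm1.

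The genes most like each member over the 8 arrays were found by Pearson's r among 12494 tested genes, as a description of arrays that share 4 groups. Tubb1 was nearest to Alox12, the platelet lipoxygenase gene (r = 0.996), Timp3 and Slamf1, and Myl9 to Gp5 (r = 0.99), Gp1bb and Vwf. Mylk was nearest to Mrvi1 (r = 0.949), Itgb3 and Gp5, and Kalrn to Treml1 (r = 0.988), Pf4 and Fhl1.

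Myom1 shared Timp3 (r = 0.991) and Alox12 with Tubb1 among its 3 nearest genes, the other being Btnl9. Cavin2 was nearest to Gng11 (r = 0.991), Gucy1b1 and Col9a1, Cald1 to Zfp112 (r = 0.994), Tmem158 and Dapk1, and Tpm1 to Tmem263 (r = 0.997), Kitl and Ssr3. The mean of the 8 genes was nearest to Pf4, platelet factor 4 (r = 0.991), followed by Tpm2 (r = 0.984), Treml1 (r = 0.984), Fhl1 (r = 0.979) and Col1a1 (r = 0.972). Of the 10 nearest genes to that mean 3 were on the megakaryocyte list (Pf4, Treml1 and Itga2b) and 2 on the stromal list (Col1a1 and Col1a2). The 8 genes were chosen with their marrow difference known, so genes near their mean tend to share it, and nothing is read from these counts.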

How the data were processed

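The deposited table gives an intensity (linear scale) for each of 45101 probe sets per array; the authors made it with RMA, per the submitters' processing notes, in a version not stated there. RMA makes array distributions alike and compresses differences of dim probe sets, and no detection calls were used. Log2 was taken here. By the platform annotation 34958 probe sets have a single gene, 932 several, and 9211 are unnamed here. The brightest probe set stood for each of 18194 genes, and 13136 genes at 5 or more on at least 2 arrays were tested, all 8 members among them. The 4 group means were fitted together with limma 3.58.1 in R 4.3.3 (degrees of freedom: 4 residual, 4.48 from eBayes), with two-sided tests and Benjamini-Hochberg adjustment over all genes at 0.05. The fit was tested on simulated data. The genes of 1 further list are not reported here. Members and lists were chosen with earlier results of these data known, and motifs with the sequences in view. Named genes were the members, up to 4 genes per list and contrast with the largest moderated t, and the nearest patterns (3 per member, 10 for their mean). P-values measure the spread between pools of mice. Alternatives were the normalization, filter, probe set choice, variance model, replicate number as a block, arrays in the fit and each array left out; those for Tpm2, Cavin1 and the megakaryocyte markers were added after seeing the data.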

Additional observations from a re-analysis of the deposited data

Results flagged for a closer look

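A gene or probe set is listed here when every knockout array lay below every wild-type array in one tissue and above in the other. The difference between the tissues was not tested. For Myom1 knockout minus wild-type came to -1.37 (log2) in bone marrow, against 0.22 in fetal liver, where its levels lay below 5. For the Cald1 probe set 1424770_at it came to -1.21 in bone marrow, against 0.37 in fetal liver. The brightest Cald1 probe set was negative in both, at -1.54 and -0.23.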

How the results depend on the processing

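Of the 8 genes 0 were called in fetal liver under any of 18 alternatives (limma), and 7 were called between the tissues under each of 17 but 1, which gave 5. The median marrow difference of the 8 genes, -1.31, ran from -1.55 to -1.12 with 1 array left out and was -1.18 with all probe sets of a gene averaged, where Kalrn fell below the filter and Cald1 in fetal liver reversed to 0.023. Myl9 in fetal liver ran from -0.15 to 0.058 with 1 array left out, reversing to 0.044 without knockout fetal liver replicate 2 and to 0.058 without wild-type fetal liver replicate 1. Counts over all genes moved more. In bone marrow the 54 calls became 97 with trend and robust variance, 109 with array weights, 3 with the 4 marrow arrays alone and 2 to 76 with 1 array left out, at 2 without either knockout marrow array and 8 without wild-type marrow replicate 1. In fetal liver the 42 calls became 14 with no filter, 25 over every probe set, 409 with trend and robust variance, 9 with array weights, 4 with the 4 fetal liver arrays alone and 5 to 1010 with 1 array left out, at 1010 without knockout fetal liver replicate 2 and 5 to 14 without any other array. Between the tissues 9765 calls became 23195 over every probe set, where more features were tested. Same-numbered arrays did not deviate together (r = -0.00 in bone marrow and -0.06 in fetal liver), so the numbers were not taken as pairs. With the replicate number as a block the fetal liver count was 10 and 0 of the 8 genes were called there. The causes of these shifts were not tested. In probe sets that stay under 5 a difference may not be detectable.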
